A study of Mus musculus with 12 samples.

Results

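The comparison described here asked whether the expression difference between female mice labelled Kdm5c+/– and wild-type (Kdm5c+/+) females was the same in the 2 fractions of inguinal white fat, a depot under the skin. For each gene, the mean log2(CPM + 1) of the 3 libraries labelled Kdm5c+/– minus that of the 3 wild-type libraries, called the label difference below, was taken in mature adipocytes and in stromal vascular cells. The stromal vascular value was then subtracted from the mature adipocyte value. This difference of differences is positive where the label difference was higher in mature adipocytes. CPM are reads of a gene per 1000000 reads of its library. All 12 of the 12 libraries of the series entered, and 14193 of 16670 genes listed (85.1%) reached 1 CPM in at least 3 libraries and were tested.

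All mice were C57BL/6 females, and no treatment, age or time of tissue collection is stated in the sources used here. Each pool joined the fat of 2 mice and was taken apart with collagenase. Mature adipocytes, which float, and stromal vascular cells, which pellet, came from the same pool. Same-numbered libraries of a label were taken as 1 pool, giving 3 pools labelled Kdm5c+/– and 3 wild-type pools. Neither the sequence that the heterozygous allele lacks nor a restriction of the allele to some cell type is stated. Libraries held 21836878 to 29434125 reads, and 3 reads came to 0.102 to 0.137 CPM. Adipoq, the hormone adiponectin, lay at 3993 to 4602 CPM in mature adipocyte and at 45.4 to 169 CPM in stromal vascular libraries, and the endothelial adhesion molecule Pecam1 at 17.1 to 58.1 and 1085 to 1588 CPM, so both fractions carried their defining markers and some RNA of the other.

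Kdm5c encodes a demethylase that takes methyl groups off lysine 4 of histone H3, a mark of active promoters and enhancers. The gene is X-linked and escapes X inactivation, so that female cells normally transcribe both copies. Mature adipocytes store triglyceride and release fatty acids and hormones. The stromal vascular fraction is a mixture of adipocyte progenitors, endothelial cells, pericytes, macrophages, lymphocytes and nerve-associated cells. An allele carried in every cell can act in one cell type and not in another, and a difference of differences is the quantity in which that would be seen.

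On chromosome X, Kdm5c spans 152233020 to 152274535 (GRCm38, plus strand). In mature adipocytes it was at 158, 190.3 and 158 CPM in the libraries labelled Kdm5c+/– and at 179, 174 and 180.0 CPM in wild type. Its stromal vascular levels were 194, 190.4 and 175 CPM against 188, 185 and 180.1 CPM. The groups overlapped in both fractions. Its difference of differences was -0.09 ± 0.11 (SE, n = 3 pools per label; 95% interval -0.34 to 0.16). The level of Kdm5c RNA therefore did not bear out the heterozygous labels in either fraction. Groups are named below by their labels only. A transcript still made from a deleted allele would be counted here as Kdm5c RNA, so these counts cannot tell it from a normal one.

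No gene passed the test. With limma, 0 of 14193 genes (0.0%) had an adjusted p under 0.05, and the smallest adjusted p was 0.369. edgeR on the recovered reads called 0 genes (0.0%), with 1753 at an unadjusted p under 0.05. DESeq2 on the same reads called 92 of the 8689 genes to which it gave an adjusted p (1.06%), and all 92 had an unadjusted p under 0.05 in limma. An unadjusted limma p under 0.05 was reached by 1603 genes (11.3%), 755 positive (5.32%) and 848 negative (5.97%), where 710 would be 5% of those tested. Whatever their p, 47.3% of the genes were positive and 52.7% negative. The mature adipocyte minus stromal vascular differences of the 3 pools labelled Kdm5c+/– all lay above those of the 3 wild-type pools in 9.05% of genes and all below in 8.6%. The genes and lists below are therefore described by their values, and no single gene is called.

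Intervals of single genes, without adjustment over genes, were mostly narrow on the log2(CPM + 1) scale. The added 1 CPM shrinks differences of genes that are low in a fraction, so a narrow interval does not bound their fold change. At least 1 CPM in 3 libraries of each fraction was reached by 11526 genes. The SE of the difference of differences had a median of 0.17, and the 95% interval extended less than 1 log2 unit to either side of the estimate for 13737 genes (96.8%). An estimate of at least 1 in size was seen for 111 genes (0.782%). Label differences varied more in mature adipocytes, with an SD over genes of 0.26 on the log2 scale, than in stromal vascular cells, with 0.21. Among the 1603 genes with an unadjusted p under 0.05, the mature adipocyte difference was the larger in size for 1173 (73.2%), against 57.8% of all genes tested. Across genes the label differences of the fractions had a Pearson correlation of 0.24, given as a description, since genes are not replicates and same-numbered libraries share a pool. The signs were the same for 8009 genes (56.4%).

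**Figure D1:**
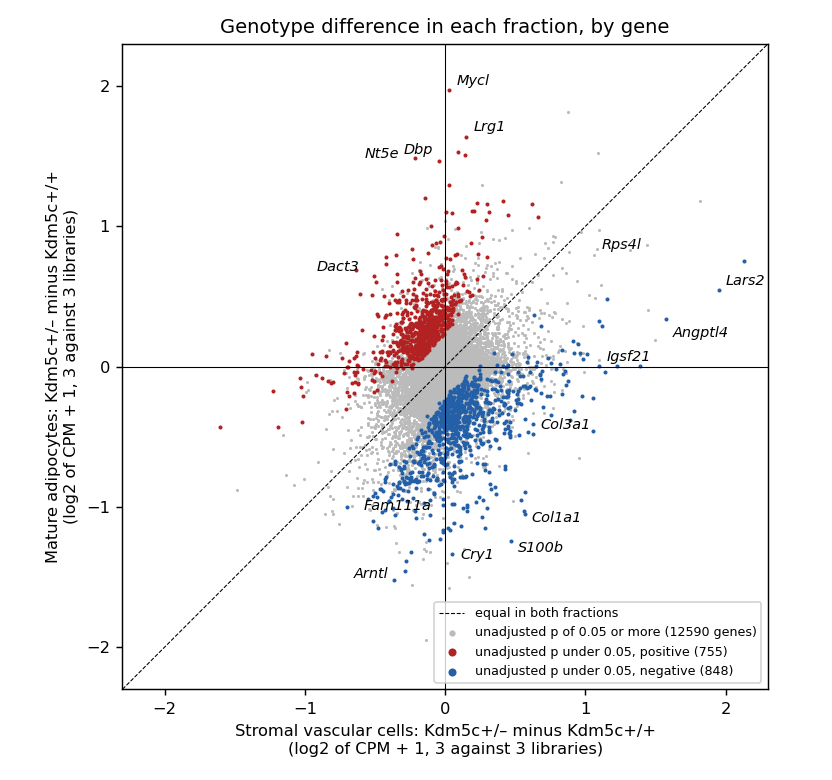
Label difference of each of 14193 genes in stromal vascular cells (horizontal axis) and in mature adipocytes (vertical axis), both as log2 of CPM + 1, labelled Kdm5c+/– minus wild type, 3 against 3 libraries. Red and blue points are the 755 positive and 848 negative genes with an unadjusted limma p under 0.05, none of which passed the adjusted threshold, and they lie mostly above and below zero on the vertical axis rather than to its sides.

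The genes with the smallest p and a positive difference of differences were mostly higher in mature adipocytes labelled Kdm5c+/–, with little difference in stromal vascular cells. Mycl, a transcription factor of the Myc family, was at 24.4, 24.6 and 5.68 CPM in mature adipocytes labelled Kdm5c+/– and at 2.36, 3.23 and 4.06 CPM in wild type, without overlap. The stromal vascular groups overlapped, at 6.10, 10.5 and 3.62 CPM against 5.01, 4.27 and 10.2 CPM. Its difference of differences was 1.94 ± 0.36 (95% interval 1.11 to 2.78), and the third pool labelled Kdm5c+/– lay far below the other 2 in mature adipocytes. Lrg1, a secreted glycoprotein, was at 754, 615 and 489 CPM against 159, 166 and 280.0 CPM in mature adipocytes. Stromal vascular Lrg1 was at 104, 130.2 and 46.4 CPM against 63.7, 74.3 and 96.8 CPM, giving 1.49 ± 0.27. The groups of Lrg1 were apart in mature adipocytes and overlapped in stromal vascular cells.

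Nt5e, the ecto-enzyme CD73 that makes adenosine from AMP, was at 4.99, 10.2 and 1.76 CPM in mature adipocytes labelled Kdm5c+/– and at 0.909, 0.747 and 1.54 CPM in wild type. Stromal vascular levels were 11.1, 18.9 and 9.16 against 11.9, 16.2 and 16.4 CPM, and the difference of differences was 1.70 ± 0.30. Ggt5, a gamma-glutamyl transferase, had a label difference of 0.72 in mature adipocytes and -0.03 in stromal vascular cells. Polr3gl, a subunit of RNA polymerase III, had 0.57 and -0.10, and Fxyd1, a regulator of the sodium pump, 0.55 and -0.02. Gadd45g, a stress-responsive gene, had 0.49 and -0.16. For these 4 genes the label groups were apart in mature adipocytes and overlapped in stromal vascular cells, and the differences of differences ran from 0.56 to 0.75.

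Other genes owed a positive difference of differences in part or mainly to lower stromal vascular levels. Dact3, an inhibitor of Wnt signalling, was at 6.64, 5.08 and 7.48 CPM against 3.43, 4.01 and 3.67 CPM in mature adipocytes, and at 17.6, 12.8 and 21.6 CPM against 21.2, 22.9 and 30.3 CPM in stromal vascular cells. Its difference of differences was 1.15 ± 0.17, with label differences of 0.64 and -0.51 and groups that overlapped narrowly in stromal vascular cells. Slc39a8, a zinc and manganese importer, was at 39.7, 30.7 and 22.6 CPM in stromal vascular cells labelled Kdm5c+/– and at 56.6, 46.7 and 50.1 CPM in wild type. In mature adipocytes its label difference was 0.06, so that its difference of differences of 0.80 ± 0.15 came almost wholly from the stromal vascular side. Nat6 (0.68) and Fam193b (0.63) also had opposite signs in the fractions, with their larger label difference in mature adipocytes.

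The gene with the smallest p of all was Fam111a, on chromosome 19 (GRCm38, 12545740 to 12589768, plus strand), which encodes a protease that acts at replication forks. Its mature adipocyte levels were 2.02, 1.92 and 2.94 CPM in the libraries labelled Kdm5c+/– and at 4.92, 6.42 and 4.64 CPM in wild type, without overlap. Its stromal vascular levels overlapped, at 52.6, 54.4 and 71.0 CPM against 63.6, 66.1 and 49.8 CPM. The mature adipocyte minus stromal vascular difference within a pool was -4.15, -4.25 and -4.19 in pools labelled Kdm5c+/– and -3.45, -3.18 and -3.17 in wild type. The difference of differences was -0.93 ± 0.13 (95% interval -1.23 to -0.63, adjusted p = 0.369 in limma).

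Most other genes with a small p and a negative difference of differences were also lower in mature adipocytes labelled Kdm5c+/–. Cep170, a centrosomal protein, was at 70.2, 80.8 and 94.4 CPM against 117, 127 and 137 CPM there. Its stromal vascular levels were 110.2, 136 and 133 CPM against 118, 120.2 and 115 CPM, and its difference of differences was -0.73 ± 0.11. Several genes of this kind were far more abundant in stromal vascular cells, so that their mature adipocyte levels are small numbers. Among these were Pcdh19, an X-linked protocadherin (-1.15), Btnl9, a butyrophilin-like protein (-0.91), Sdc3, the cell surface proteoglycan syndecan-3 (-0.61), and the phosphatidylinositol transfer protein Pitpnc1 (-0.53). The mature adipocyte levels of these 4 genes lay between 2.52 and 33.1 CPM, and their stromal vascular levels between 118 and 387 CPM. Nbeal1 had -0.65, with label differences of -0.66 and -0.01.

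Igsf21, an immunoglobulin superfamily protein, showed the reverse form. It lies on the minus strand of chromosome 4 (GRCm38, 140026846 to 140246784). Stromal vascular libraries labelled Kdm5c+/– held 5.73, 5.50 and 5.59 CPM, and those of wild type 1.83, 1.98 and 2.47 CPM. Mature adipocytes held 2.27, 2.28 and 3.29 CPM against 2.40, 2.28 and 3.13 CPM. The stromal vascular groups were apart with little spread, the mature adipocyte groups overlapped, and the difference of differences was -1.10 ± 0.19. Alx4, a homeobox factor, had label differences of -0.49 in mature adipocytes and 0.52 in stromal vascular cells, giving -1.01 ± 0.17. Its mature adipocyte levels lay between 0.200 and 2.12 CPM, where the added 1 CPM shrinks differences. Hilpda, a lipid droplet protein that inhibits lipolysis, had -0.54 and 0.26, giving -0.80 ± 0.15.

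**Figure D2:**
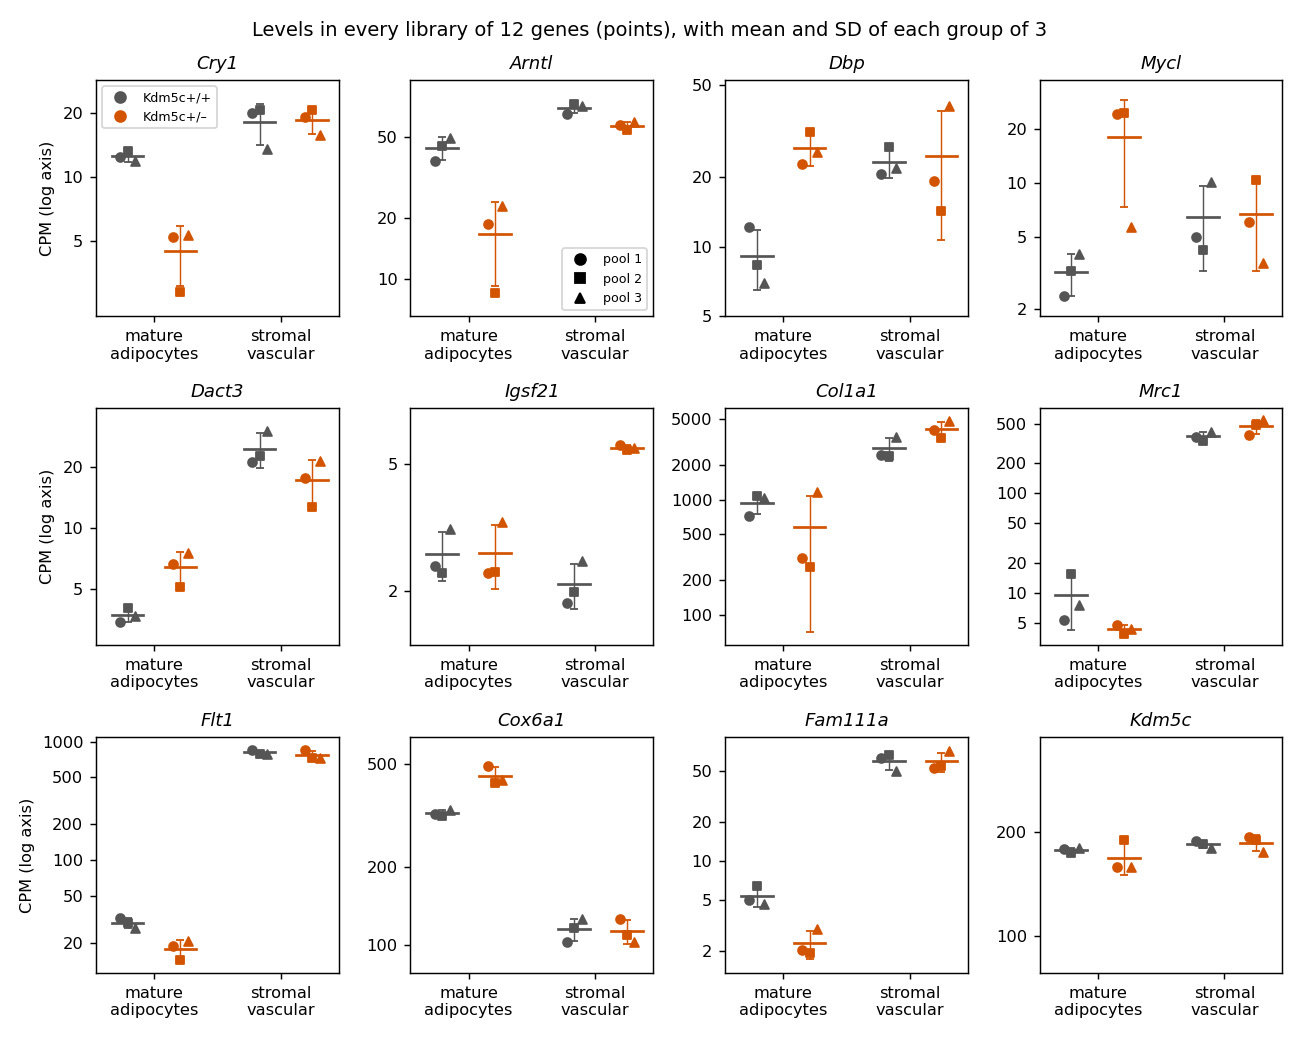
Levels of 12 genes in all 12 libraries (CPM, log axis), in mature adipocytes and stromal vascular cells, wild type in grey and labelled Kdm5c+/– in orange. Marker shapes give the pool number within a label, lines and bars the mean and SD of 3 libraries. Cry1, Arntl and Fam111a are lower in mature adipocytes labelled Kdm5c+/–, Igsf21 is higher in stromal vascular cells labelled Kdm5c+/–, and Kdm5c overlaps in both fractions.

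Genes of the circadian clock went both ways, with differences of differences from -1.38 to 1.51. The clock is a feedback loop in which CLOCK or NPAS2, paired with ARNTL (BMAL1), drives the Per and Cry repressors and the nuclear receptors Nr1d1 and Nr1d2, which in turn repress Arntl, Npas2 and Cry1. The output factor Dbp is another target of the activators. Of 23 clock genes tested, 7 had an unadjusted p under 0.05, 3 positive and 4 negative, against 11.3% of all genes. The median over the list was -0.01, the same as over all genes. These genes were chosen with earlier results known, in which some of the same mature adipocyte values had been noted.

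The negative members were the activators and Cry1. Cry1 (chromosome 10, GRCm38, 85131700 to 85185064, minus strand) was at 5.21, 2.88 and 5.37 CPM in mature adipocytes labelled Kdm5c+/– and at 12.4, 13.2 and 11.9 CPM in wild type. Its stromal vascular levels were 19.1, 20.6 and 15.7 CPM against 20.0, 20.6 and 13.5 CPM. The mature adipocyte groups were well apart, the stromal vascular groups overlapped almost fully, and the difference of differences was -1.38 ± 0.29 (95% interval -2.05 to -0.71). Arntl was at 18.6, 8.53 and 22.9 CPM against 38.2, 45.4 and 49.8 CPM in mature adipocytes, and at 57.5, 54.6 and 59.5 CPM against 65.5, 72.9 and 71.9 CPM in stromal vascular cells. Arntl was thus lower in libraries labelled Kdm5c+/– in both fractions without overlap, by 1.46 and 0.29 on the log2 scale, and its difference of differences was -1.17 ± 0.29. Npas2 had -0.80 ± 0.21 and Clock -0.35 ± 0.10, both with groups apart in mature adipocytes only.

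The positive members were Dbp and the nuclear receptors. Dbp was at 22.8, 31.3 and 25.7 CPM against 12.1, 8.36 and 6.95 CPM in mature adipocytes, without overlap. Stromal vascular cells had 19.2, 14.2 and 40.6 CPM against 20.7, 27.1 and 21.9 CPM, where the third pool labelled Kdm5c+/– stood above all others. The difference of differences of Dbp was 1.51 ± 0.44. Nr1d1, also called REV-ERB alpha, was at 433, 521 and 333 CPM against 346, 252 and 269 CPM in mature adipocytes and at 206, 216 and 231 CPM against 236, 246 and 234 CPM in stromal vascular cells, giving 0.69 ± 0.22. The groups of Nr1d1 overlapped in mature adipocytes and were apart in stromal vascular cells. Nr1d2 had 0.53 ± 0.19. Dbp and Nr1d1 overlap other genes on the opposite strand (Sphk2 and Thra), and the strand setting of the authors' counting is not given in the sources used here. With any 1 pool left out, the difference of differences stayed between -1.61 and -1.07 for Cry1, between -1.41 and -0.81 for Arntl (-0.81 without the second pool labelled Kdm5c+/–) and between 1.08 and 1.94 for Dbp.

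The Per genes did not follow this division. Per1 had 0.12 ± 0.13, Per2 -0.25 ± 0.16 and Per3 0.20 ± 0.13. In the second pool labelled Kdm5c+/–, Per1 was at 263 CPM in mature adipocytes and 205 CPM in stromal vascular cells, above the 86.3 to 132 CPM of the other 10 libraries, so that the pool stood apart in both fractions and the difference within it was small. Per2 was highest in the same 2 libraries, at 53.6 and 76.1 CPM. Without that pool the difference of differences of Per1 was -0.0040. Cry2 had -0.39 ± 0.18. Clock genes vary with the time of day, which was not tested here because no times are given.

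**Figure D3:**
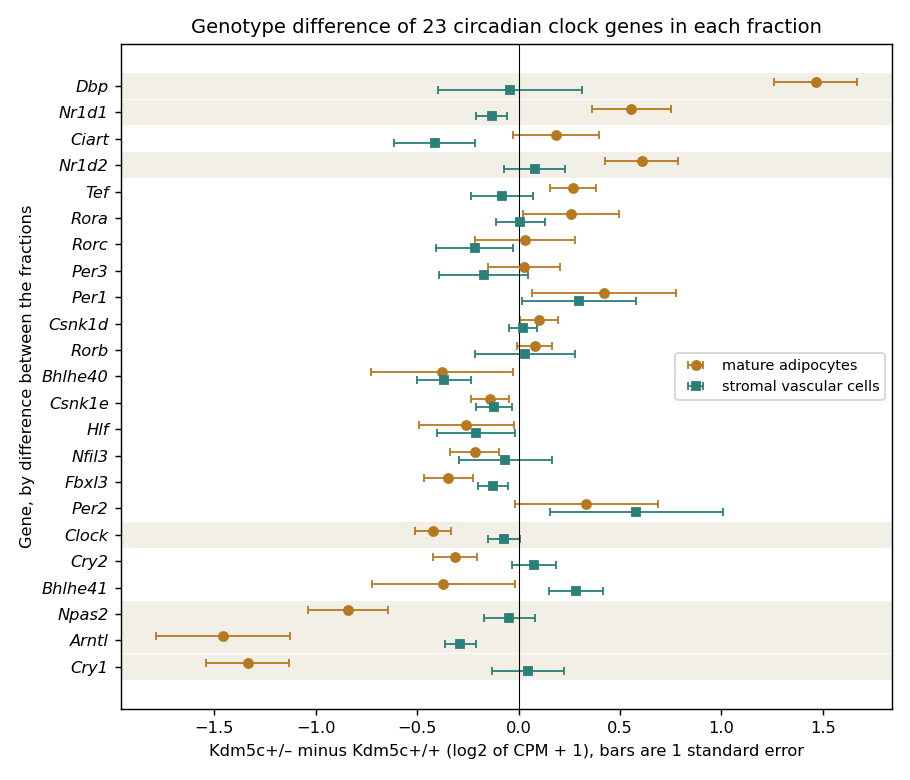
Label difference (labelled Kdm5c+/– minus wild type, log2 of CPM + 1) of 23 circadian clock genes in mature adipocytes (circles) and stromal vascular cells (squares), with bars of 1 standard error, sorted by the difference between them. Shaded rows are the 7 genes with an unadjusted limma p under 0.05, in which the mature adipocyte value lies to the left (Cry1, Arntl, Npas2, Clock) or to the right (Dbp, Nr1d1, Nr1d2) of the stromal vascular value.

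The promoters of the 4 clock genes with a role on each side of the loop are shown, to let a reader compare the activator Arntl, the repressor Cry1, the receptor Nr1d1 and the output factor Dbp. Each runs 5′ to 3′ from 250 bases before to 50 bases after the start in RefSeq (GRCm38.p6, the gene's own strand), with an E-box, CACGTG, in capitals where a script found one. The windows are chr7:113207215-113207514 (plus strand) for Arntl, the first of 2 listed, chr10:85185005-85185304 (minus) for Cry1, chr11:98775328-98775627 (minus) for Nr1d1 and chr7:45704997-45705296 (plus) for Dbp.
Arntl promoter: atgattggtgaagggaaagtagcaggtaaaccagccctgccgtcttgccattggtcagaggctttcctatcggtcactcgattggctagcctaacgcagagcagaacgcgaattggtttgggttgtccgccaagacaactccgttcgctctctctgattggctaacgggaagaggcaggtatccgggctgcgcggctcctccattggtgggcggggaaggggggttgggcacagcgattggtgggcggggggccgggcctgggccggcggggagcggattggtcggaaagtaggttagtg
Cry1 promoter: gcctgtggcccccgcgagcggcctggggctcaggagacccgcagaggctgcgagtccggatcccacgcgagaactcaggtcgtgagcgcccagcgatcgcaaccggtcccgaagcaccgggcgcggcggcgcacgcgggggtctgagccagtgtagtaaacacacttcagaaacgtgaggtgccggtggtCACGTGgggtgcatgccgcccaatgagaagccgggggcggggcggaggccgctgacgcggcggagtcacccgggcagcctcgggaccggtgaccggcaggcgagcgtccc
Nr1d1 promoter: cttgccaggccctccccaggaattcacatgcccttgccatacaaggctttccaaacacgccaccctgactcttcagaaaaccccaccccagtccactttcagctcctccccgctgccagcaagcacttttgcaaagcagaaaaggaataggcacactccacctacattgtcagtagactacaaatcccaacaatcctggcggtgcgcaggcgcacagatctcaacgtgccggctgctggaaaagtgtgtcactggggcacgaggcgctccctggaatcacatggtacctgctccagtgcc
Dbp promoter: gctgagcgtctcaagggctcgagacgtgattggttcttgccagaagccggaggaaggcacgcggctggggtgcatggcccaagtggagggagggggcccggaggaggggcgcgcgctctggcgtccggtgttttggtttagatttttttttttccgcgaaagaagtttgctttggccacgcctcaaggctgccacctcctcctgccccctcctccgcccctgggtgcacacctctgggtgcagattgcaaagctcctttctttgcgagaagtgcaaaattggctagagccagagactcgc
Of 23 clock genes, 18 had a window. The E-box CACGTG, the same on both strands, was present in 5 of them, against 7.15% of all 32851 windows of this length. In Cry1 its first base lay 60 bases before the start. The D-box TTANGTAA was present in 1 of the 18 and the ROR element core TAGGTCA in 1, both searched on both strands, against 2.32% and 2.61% of all windows. None of the 3 motifs contains another. The other 3 windows printed held no exact match to these motifs. Forms that differ by a base, such as taggtta near the end of the Arntl window, were not searched, and nothing is said of binding there or elsewhere.

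Genes of the extracellular matrix had mostly negative differences of differences. Of 42 members, 36 were negative and 6 positive, and 17 had an unadjusted p under 0.05, all negative, against 5.97% of all genes. The list median was -0.42, from -0.41 in mature adipocytes and 0.11 in stromal vascular cells, while over all genes it was -0.01, -0.04 and -0.03. Without the second wild-type pool the list median was -0.24. The summed level of progenitor and fibroblast markers in mature adipocyte libraries was lower with the label, 14259 to 17589 against 18687 to 28042 CPM without overlap. Of these 24 genes 22 were lower there, against 58.6% of all genes, and the part of this in the matrix values was not tested. Dcn and Lum are members of both lists. In wild-type stromal vascular libraries the sum was similar, 22239 to 27952 CPM. Yet the median gene of the marker list stood at -5.78 to -4.54 log2 units in mature adipocytes relative to stromal vascular cells of a pool. Members abundant in mature adipocytes therefore carry much of the sum there, and it is a poor measure of progenitor RNA. Col1a1 and Col1a2, the chains of type I collagen, had the largest values in the matrix list, and Col1a1 lies on chromosome 11 (GRCm38, 94936224 to 94953042, plus strand). Stromal vascular Col1a1 was at 4035, 3407 and 4785 CPM in the libraries labelled Kdm5c+/– and at 2438, 2390.0 and 3515 CPM in wild type. Its mature adipocyte levels were 309, 262 and 1161 CPM against 721, 1083 and 1028 CPM. The third pool labelled Kdm5c+/– was above all wild-type libraries in mature adipocytes and the other 2 pools below them. Its difference of differences was -1.59 ± 0.46, and -2.14 without that pool.

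Other collagens named here were also lower in mature adipocytes and higher in stromal vascular cells on average, with differing overlap. Col3a1, the chain of type III collagen, was at 899, 918 and 1266 CPM against 1375, 1362 and 1302 CPM in mature adipocytes, and at 14345, 13067 and 23398 CPM against 8990.0, 9232 and 14348 CPM in stromal vascular cells, giving -1.03 ± 0.24. Its groups were apart in mature adipocytes and overlapped in stromal vascular cells through the third wild-type library. Col1a2 had -1.62 ± 0.46, Col5a2 -0.74 ± 0.16 and Col6a3, of the microfibrillar type VI collagen, -1.16 ± 0.25. Postn, the matricellular protein periostin, was at 2143, 2436 and 2597 CPM against 1064, 1408 and 2212 CPM in stromal vascular cells and at 22.5 to 29.2 CPM against 20.8 to 31.9 CPM in mature adipocytes, giving -0.73 ± 0.21. Lox, which cross-links collagen, owed its -0.57 ± 0.18 to mature adipocytes, with 164, 125 and 206 CPM against 229, 304 and 259.9 CPM there. Col4a1, of the basement membrane, had -0.16 ± 0.16, with overlap in both fractions.

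Of 32 genes of TGF-beta signalling, which drives matrix production, 24 were negative and 8 positive, where 52.7% of all genes were negative. Their median was -0.15, or -0.07 without the second pool labelled Kdm5c+/–, -0.07 with the length trend described below removed, and -0.26 with 0.25 CPM added in place of 1. Skil, a repressor of SMAD proteins that TGF-beta itself induces, was at 23.005, 27.5 and 24.7 CPM against 39.6, 42.6 and 42.1 CPM in mature adipocytes, without overlap. Its stromal vascular levels were 44.0, 55.5 and 42.6 CPM against 51.8, 47.5 and 37.1 CPM, giving -0.77 ± 0.16. Bmp4, a ligand of the family that commits progenitors to the fat lineage, had 0.72 ± 0.20. In stromal vascular cells Bmp4 lay at 12.3, 13.5 and 16.2 CPM against 16.7, 30.4 and 21.4 CPM, without overlap, and in mature adipocytes it stayed between 0.309 and 1.12 CPM.

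Most markers of vascular cells were lower in mature adipocyte libraries labelled Kdm5c+/–. In bulk samples, fewer cells of a type and less RNA per cell cannot be told apart. Of 16 endothelial genes, 0 were positive and 16 negative, 10 of them at an unadjusted p under 0.05 against 5.97% of all genes, with a list median of -0.50 from -0.72 in mature adipocytes and -0.22 in stromal vascular cells. Without the second pool labelled Kdm5c+/–, which had the lowest endothelial sum, the list median was -0.32. Flt1, a VEGF receptor, was at 18.7, 14.4 and 20.7 CPM against 32.6, 29.3 and 27.0 CPM in mature adipocytes and at 845, 729 and 731 CPM against 843, 792 and 791 CPM in stromal vascular cells, giving -0.63 ± 0.14. Kdr, the main VEGF receptor, had -0.52 ± 0.14, with groups apart in both fractions. The endothelial orphan receptor Tie1 had -0.54 ± 0.17. The summed endothelial level was 163 to 311 CPM in mature adipocyte libraries labelled Kdm5c+/– and 366 to 466 CPM in wild type, without overlap, and 8689 to 11255 against 10993 to 11976 CPM in stromal vascular cells, with overlap.

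Pericyte and smooth muscle genes numbered 13, of which 11 were negative and 2 positive, with 6 at an unadjusted p under 0.05, 4 negative and 2 positive, against 11.3% of all genes. Rgs5, a pericyte regulator of G protein signalling, was at 17.2, 9.85 and 22.9 CPM against 27.2, 38.5 and 28.5 CPM in mature adipocytes and had -0.71 ± 0.16. Pdgfrb, the platelet-derived growth factor receptor of pericytes, had -0.54 ± 0.14, and the potassium channel subunit Abcc9 -0.39 ± 0.12. All 3 genes had groups apart in mature adipocytes. Among stromal vascular levels only Abcc9 of these 3 did, at 464, 439 and 507 CPM against 544, 652 and 575 CPM. The whole list ran from -1.81 to 1.09, with a median of -0.39, from -0.88 in mature adipocytes and -0.28 in stromal vascular cells. Its summed level overlapped in mature adipocytes, with 1033 to 1130 CPM in libraries labelled Kdm5c+/– against 1046 to 1481 CPM. In stromal vascular cells the sums were 4122 to 4442 against 4474 to 5608 CPM, without overlap.

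Macrophage markers had the lowest list median, -0.76, from -0.39 in mature adipocytes and 0.40 in stromal vascular cells. Of 15 tested, 14 were negative and 5 of these had an unadjusted p under 0.05, against 52.7% and 5.97% of all genes. Mrc1, the mannose receptor of resident macrophages, was at 4.70, 3.88 and 4.31 CPM against 5.37, 15.5 and 7.61 CPM in mature adipocytes and at 384, 479 and 542 CPM against 369, 333 and 409 CPM in stromal vascular cells, giving -1.20 ± 0.38. The complement genes C1qa (-0.89 ± 0.29) and C1qb (-0.87 ± 0.29) were higher in every stromal vascular library labelled Kdm5c+/– than in wild type, with 284, 440.4 and 329.9 CPM against 246, 262 and 267 CPM for C1qa. The second wild-type pool carried more macrophage RNA in its mature adipocyte library, a summed 256 CPM against 98.8 to 119 CPM in the other 5. Without that pool the list median was -0.35.

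Progenitor and Schwann cell markers leaned the same way with fewer genes at a small p. Of 24 progenitor and fibroblast genes, 19 were negative and 5 positive, where 52.7% of all genes were negative. Their median of -0.31 came to -0.04 without the second wild-type pool. That pool had the highest summed progenitor level among mature adipocyte libraries, 28042 CPM, against 18687 and 20424 CPM in the other wild-type pools and 14259 to 17589 CPM in those labelled Kdm5c+/–. As said above, members abundant in mature adipocytes carry much of this sum. Cd34, a surface marker of progenitors and endothelium, was at 11.2, 6.72 and 9.21 CPM against 16.5, 17.7 and 11.6 CPM in mature adipocytes and had -0.70 ± 0.27. Dpt, a matrix protein of fibroblasts, had -0.64 ± 0.27, with overlap in both fractions. All 11 Schwann cell genes were negative, with a median of -0.33 and S100b lowest at -1.71 ± 0.59. That median was -0.13 without the second pool labelled Kdm5c+/–, -0.72 without the third, and -0.51 and -0.50 without wild-type pools 2 and 3. Over the members with 1 CPM in 3 libraries of each fraction it was -0.68. S100b was at 2.42, 2.40 and 8.27 CPM against 6.57, 16.3 and 9.89 CPM in mature adipocytes, with overlap through the third pool labelled Kdm5c+/–.

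Dlk1, the preadipocyte factor that holds back fat cell differentiation, shows how a low level in one fraction bears on the measure. Its level in stromal vascular cells was 4.97, 6.69 and 6.37 CPM in the libraries labelled Kdm5c+/– and at 11.5, 9.65 and 13.3 CPM in wild type, with a label difference of -0.83 ± 0.16 without overlap. Mature adipocyte levels were 0 to 0.0392 CPM against 0.0679 to 0.116 CPM, at or below the level of 3 reads. Its difference of differences on log2(CPM + 1) was 0.73 ± 0.20, but edgeR and DESeq2, which compare reads with no added CPM, gave negative values.

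**Figure D4:**
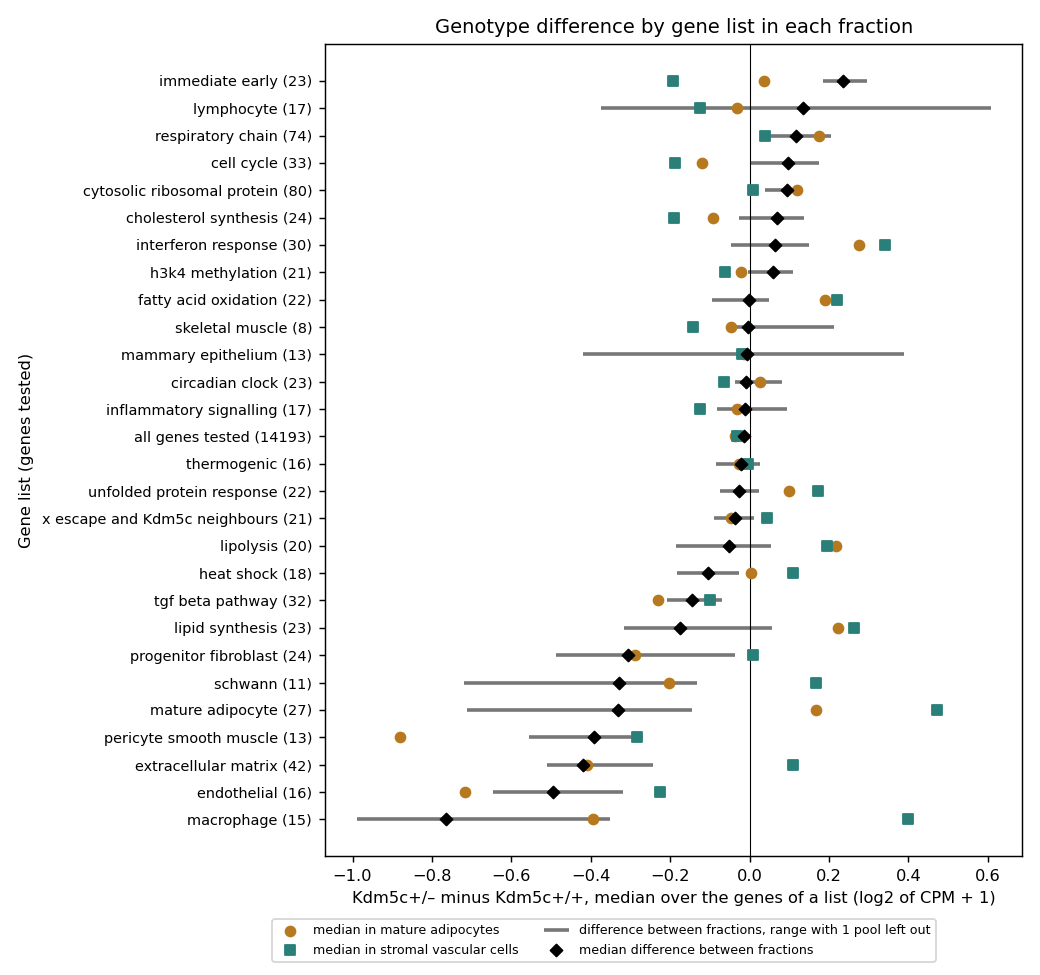
Medians over the genes of each list of the label difference in mature adipocytes (circles), in stromal vascular cells (squares) and of the difference of differences (diamonds), as log2 of CPM + 1, with the number of genes tested in brackets. Grey bars give the range of the last with 1 pool left out. Macrophage, endothelial, extracellular matrix and pericyte lists lie lowest, immediate early genes highest at 0.24, and the lymphocyte and mammary lists have the widest of the bars that cross 0.

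Among all genes, a negative median was seen mainly in those most above in stromal vascular cells. Genes were divided into 10 equal bins by their mean difference in level between the fractions, which the difference of differences does not use. In the bin most above in stromal vascular cells, with 1420 genes, the median difference of differences was -0.24, from -0.28 in mature adipocytes and -0.08 in stromal vascular cells, and 317 genes (22.3%) were positive. An unadjusted p under 0.05 was reached by 18.8% of this bin, against 11.3% of all genes. Median level differences within pools were -6.20 to -4.18 for the macrophage and -5.46 to -4.53 for the endothelial list. Both lie within the bin's range of -6.82 to -3.09, so its shares are a closer background for these lists than those of all genes. In the other 9 bins the median difference of differences lay between -0.05 and 0.03. The genes of the first bin are at lower levels in mature adipocyte than in stromal vascular libraries, but not all are low there. In mature adipocyte libraries the summed endothelial level above was also lower with the label, without overlap. The progenitor sum was too, but it is a poor measure of progenitor RNA. The macrophage and pericyte sums in mature adipocyte libraries overlapped. Most members of these lists were nonetheless lower there with the label, 13 of 15 macrophage and 11 of 13 pericyte genes, against 58.6% of all genes. The part of stromal RNA carried into the fat layer in these values was not tested.

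**Figure D5:**
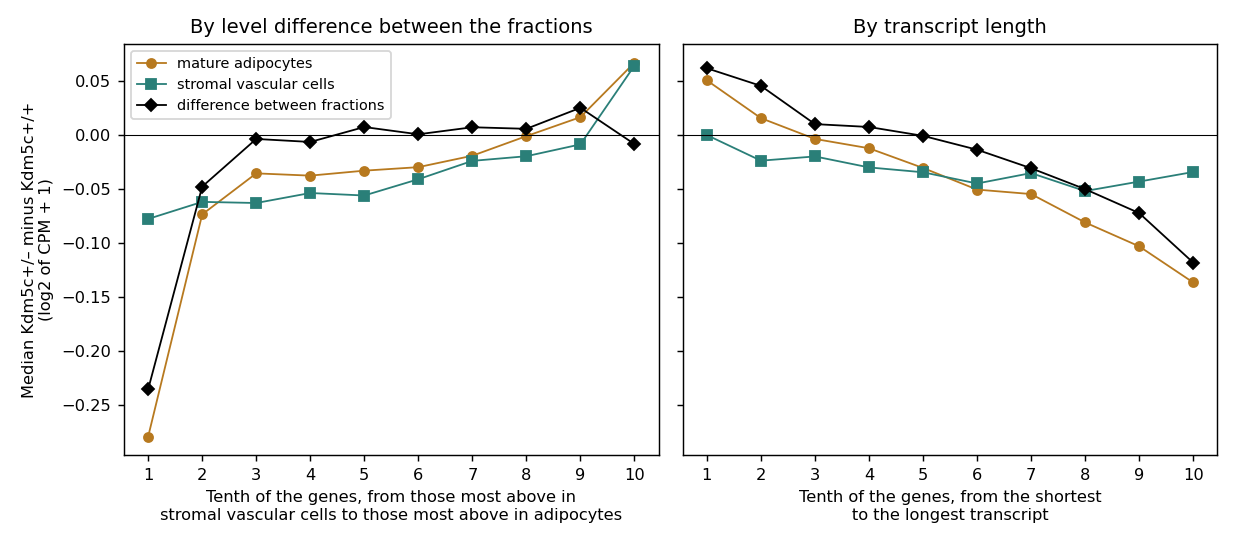
Median label difference in mature adipocytes (circles) and stromal vascular cells (squares) and median difference of differences (diamonds), as log2 of CPM + 1, over 10 bins of the genes. On the left, bins run from genes most above in stromal vascular cells to those most above in adipocytes, and only the first 2 stand below the rest. On the right, bins run from short to long transcripts, and the difference of differences goes from 0.06 to -0.12.

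The genes of fat cells had positive label differences in both fractions. Of 27 mature adipocyte genes, 24 had a negative difference of differences and 3 a positive one, where 52.7% of all genes were negative. The list median was -0.33, from label differences of 0.17 in mature adipocytes and 0.47 in stromal vascular cells. The summed level of the list in mature adipocyte libraries was 111224 to 121219 CPM in those labelled Kdm5c+/– and 98651 to 101002 CPM in wild type, without overlap, and 20 of the 27 genes were higher. Of all genes, 58.6% were lower there. Adipoq was at 4602, 4514 and 4411 CPM against 4169, 4299.9 and 3993 CPM in mature adipocytes and at 165, 169 and 55.8 CPM against 105, 45.4 and 59.5 CPM in stromal vascular cells. Its difference of differences was -0.69 ± 0.47. Lpl, the lipase that loads fatty acids into fat cells, was the only member with an unadjusted p under 0.05, at -0.57 ± 0.22. That is 3.70% of the list, against 11.3% of all genes. The fatty acid transporter Cd36 had -0.34 ± 0.19, with overlap in both fractions. The summed level of the list in stromal vascular libraries was 16878 and 18297 CPM in the first 2 pools labelled Kdm5c+/–, 11483 CPM in the third, and 12232 to 12403 CPM in wild type, with overlap. The list median was -0.15 without the second wild-type pool, and it was -0.19 without the first, -0.16 without the second and -0.71 without the third pool labelled Kdm5c+/–.

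Respiratory chain and ribosomal protein genes were the large lists with positive medians. Of 74 respiratory chain genes, 59 were positive, against 47.3% of all genes. An unadjusted p under 0.05 was reached by 11 (14.9%), all positive. Over all genes that share was 11.3%, and 5.32% were positive with such a p. The list median was 0.12, from 0.18 in mature adipocytes and 0.04 in stromal vascular cells. It was 0.05 without wild-type pool 3, 0.07 without the third pool labelled Kdm5c+/– and 0.21 without wild-type pool 1. Cox6a1, a subunit of cytochrome c oxidase, was at 491, 422 and 432 CPM against 319, 313 and 333 CPM in mature adipocytes, without overlap. Its stromal vascular levels were 126, 109 and 102 CPM against 102, 116 and 125 CPM, giving 0.50 ± 0.11. The oxidase subunits Cox5b (0.60 ± 0.13) and Cox6c (0.40 ± 0.09) were likewise apart in mature adipocytes and overlapped in stromal vascular cells.

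Of 80 cytosolic ribosomal protein genes, 52 were positive, 7 of them at an unadjusted p under 0.05 (8.75% of the list, against 11.3% of all genes), with a median of 0.10, or 0.04 without the third pool labelled Kdm5c+/–. Rps26, of the small subunit, was at 46.1, 51.7 and 48.2 CPM against 35.5, 33.9 and 36.5 CPM in mature adipocytes and at 101, 89.8 and 82.0 CPM against 96.1, 104 and 98.0 CPM in stromal vascular cells, giving 0.58 ± 0.13. Rpl7a, of the large subunit, had 0.41 ± 0.11, and its groups were apart in opposite directions in the fractions. Many genes of both lists have near-identical pseudogene copies, so that the split of reads between copies is uncertain.

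These 2 lists hold short transcripts, and the difference of differences varied with transcript length. Their median lengths were 1186 and 1100 bases, against 3413 over all genes and 5332 in the extracellular matrix list. Over 10 bins of the 13555 genes with a length, the median difference of differences went from 0.06 in the shortest (up to 1445 bases) to -0.12 in the longest (6845 and over). The Spearman correlation with length across genes was -0.27 for the mature adipocyte difference and -0.07 for the stromal vascular one, a description over genes that share libraries. By library, the correlation of a gene's deviation from its fraction's mean with length was -0.31, 0.02 and -0.26 in mature adipocytes labelled Kdm5c+/– and 0.14, 0.19 and 0.20 in wild type. With this trend taken out of each library, the respiratory chain median was 0.06 and the ribosomal one 0.03, both lower by over 1.5 times, while the extracellular matrix median was -0.40 and the endothelial one -0.47. The TGF-beta median, over genes of 5116 bases at the median, was -0.07 in place of -0.15, and the lymphocyte one 0.07 in place of 0.14. Whether RNA quality or library preparation set the trend was not tested.

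Immediate early genes, which are switched on within minutes of a stimulus, had the highest list median, 0.24. Of 23 tested, 18 were positive, and 7 had an unadjusted p under 0.05, 5 positive and 2 negative, where 47.3% of all genes were positive and 11.3% had such a p. The median label difference was 0.04 in mature adipocytes and -0.19 in stromal vascular cells, where 21 of the 23 were lower in libraries labelled Kdm5c+/–, against 58.8% of all genes. Ier3 was at 90.6, 93.1 and 90.9 CPM against 105, 134 and 119 CPM in stromal vascular cells, without overlap, and had 0.39 ± 0.11. The nuclear receptor Nr4a1 was at 135, 129 and 164 CPM against 171, 219 and 166 CPM there and had 0.48 ± 0.15. Klf6, a zinc finger factor, went against the list at -0.63 ± 0.16, with 208, 298 and 350.4 CPM against 392, 475 and 461 CPM in mature adipocytes. Heat shock genes, which also respond to handling of tissue, gave 6 positive and 12 negative of 18, with Hspa1a at 0.75 ± 0.20, Hsph1 at -0.68 ± 0.24 and Dnaja1 at -0.34 ± 0.12. Hspa1a has a near-identical neighbour and an overlapping gene, so its reads are uncertain.

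Interferon response genes had mostly positive label differences in both fractions, and their difference of differences had a median of 0.06. Of 30 tested, 24 had a positive label difference in mature adipocytes and 25 in stromal vascular cells, where 58.6% and 58.8% of all genes were negative. An unadjusted p under 0.05 was reached by 6, 3 in each direction, or 20% of the list against 11.3% of all genes. Irf7, the factor that amplifies the interferon response, was at 55.5, 64.5 and 33.1 CPM against 22.9, 18.8 and 28.0 CPM in mature adipocytes and at 80.2, 107 and 55.6 CPM against 47.0, 43.9 and 57.5 CPM in stromal vascular cells. Its label difference was 1.07 ± 0.26 and 0.66 ± 0.23, and the difference of differences was 0.41 ± 0.11. Ifi44 had 0.76 ± 0.16. Ifi27l2a had -1.18 ± 0.38, with 60.6, 91.2 and 50.3 CPM against 42.4, 17.4 and 47.1 CPM in stromal vascular cells, without overlap, and overlap in mature adipocytes.

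Genes of the enzymes that write or erase methylation of lysine 4 of histone H3, the mark on which KDM5C acts, had small values. Of 21 tested, 13 were positive and 8 negative, with a range of -0.26 to 0.43 and a median of 0.06. That median was 0.11 with the length trend removed, 0.10 and 0.11 without the first pool labelled Kdm5c+/– and wild-type pool 3, and -0.0024 and -0.0030 without the second pool labelled Kdm5c+/– and wild-type pool 1. Setd1a, a methyltransferase, had 0.43 ± 0.14, and its partner Cxxc1 0.33 ± 0.13, both apart in mature adipocytes only. Kdm5a, the autosomal paralog of Kdm5c, had -0.26 ± 0.11. Among 21 genes that escape X inactivation or lie near Kdm5c, 8 were positive and 13 negative. The neighbours Tspyl2 (0.36 ± 0.12) and Hsd17b10 (0.32 ± 0.11) had groups apart in mature adipocytes, and the deubiquitinase Usp9x, which escapes, had -0.35 ± 0.11 with overlap in both fractions.

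A difference of differences can also come from label differences of opposite sign. In 127 genes (0.895%) the 3 libraries labelled Kdm5c+/– lay outside the 3 wild-type libraries in both fractions, in opposite directions. Of these, 71 (0.5%) were higher in mature adipocytes and lower in stromal vascular cells labelled Kdm5c+/–, and 56 (0.395%) the reverse. Groups apart in the same direction in both fractions were seen for 74 genes that were higher (0.521%) and 268 that were lower (1.89%) in libraries labelled Kdm5c+/–. The groups were apart in mature adipocytes alone or with the other fraction for 20.6% of all genes, and in stromal vascular cells for 13.3%. None of these counts is a test.

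Xpa, which recognises DNA damage in nucleotide excision repair, was among the first kind. It was at 11.4, 10.4 and 13.6 CPM against 8.14, 9.85 and 7.996 CPM in mature adipocytes and at 12.1, 11.4 and 12.6 CPM against 14.4, 16.9 and 13.4 CPM in stromal vascular cells, giving 0.69 ± 0.13. Olfm2, an olfactomedin, had label differences of 0.51 and -0.61, and the Notch target Hey2 had 0.17 and -0.71. Abhd14b (0.24 and -0.25), Sh3glb2 (0.23 and -0.23) and Hcfc1r1 (0.32 and -0.16) had smaller ones. The levels of Hey2 in mature adipocytes, 0.207 to 0.440 CPM, were close to those of 3 reads.

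Of the reverse kind was Adamts4, a protease that cuts proteoglycans of the matrix. It was at 41.4, 43.9 and 42.7 CPM in stromal vascular cells labelled Kdm5c+/– and at 28.9, 34.8 and 31.6 CPM in wild type. Its mature adipocyte levels were 0.954, 0.640 and 0.744 CPM against 1.41, 1.36 and 1.27 CPM, giving -0.82 ± 0.16. Dcp2, which removes the cap of mRNA, was at 23.7, 27.0 and 28.6 CPM against 38.7, 36.6 and 37.1 CPM in mature adipocytes and at 59.7, 56.0 and 57.9 CPM against 53.9, 49.8 and 50.6 CPM in stromal vascular cells, giving -0.66 ± 0.11. The ribosome assembly factor Tsr1 had -0.58 ± 0.12, the Golgi protein Golga3 -0.53 ± 0.11 and Gmfb, a factor that debranches actin, -0.48 ± 0.10. The pseudogene Hmga2-ps1 had -0.96 ± 0.15, but its reads may belong to other copies, so this value is uncertain.

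The other lists had few or no genes with a small p, where 11.3% of all genes had an unadjusted p under 0.05. Of 23 lipid synthesis and 22 fatty acid oxidation genes, 0 had an unadjusted p under 0.05, with medians of -0.18 and -0.00. Lipid synthesis had label differences of 0.22 and 0.26 in the fractions, and fatty acid oxidation 0.19 and 0.22, positive in both. Of 20 lipolysis genes 1 had an unadjusted p under 0.05, Adra2a, the receptor by which adrenaline restrains lipolysis, at 0.85 ± 0.26. The lactate receptor Hcar1 had 0.31 ± 0.13. Thermogenic genes had 8 positive and 8 negative of 16, and inflammatory genes 8 and 9 of 17. Cholesterol synthesis genes had 14 positive of 24. Among 22 genes of the unfolded protein response, 9 were positive, with the sensor Atf6 at -0.40 ± 0.10 and the chaperone Dnajb9 at 0.42 ± 0.16. Of 33 cell cycle genes, 23 were positive with a median of 0.10 (0.0042 without the second pool labelled Kdm5c+/–, 0.04 with 0.25 CPM added and 0.18 with quantile normalization), and Cdc6, which loads the replicative helicase, was the only one with an unadjusted p under 0.05, at -0.67 ± 0.20. Lymphocyte genes (11 positive of 17) and mammary epithelial genes (6 of 13) had 0 with an unadjusted p under 0.05.

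Within the single fractions, on the same genes, 0 of 14193 (0.0%) passed the test in mature adipocytes and 1 (0.00705%) in stromal vascular cells. That gene was Rps4l, a copy of the ribosomal protein gene Rps4x, whose reads are uncertain for that reason. It was at 55.6, 59.1 and 59.1 CPM against 24.7, 28.5 and 28.7 CPM in stromal vascular cells and at 49.5, 46.5 and 65.2 CPM against 26.7, 35.6 and 28.7 CPM in mature adipocytes. The groups were apart in both fractions, and the difference of differences was -0.26 ± 0.15 (95% interval -0.61 to 0.09).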

How the data were processed

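RNA libraries of 3 pools per label and fraction were analysed, 12 in all. Per the labels' protocols, libraries were strand-specific (Universal plus mRNA-Seq, NuGEN), and each pool held fat of 2 mice. Reads had been handled with the build GRCm38, STAR 2.7.2a and edgeR 3.26.8 per the submitters' processing notes. How reads were assigned to genes, with which annotation and strand setting, is not given in the sources used here. Each deposited value is a CPM, for which the authors scaled the counts of each library to a total of 1000000 over the genes listed. In every library 100% of the values were whole multiples of 1 read within a tolerance of 0.05, so whole reads were recovered. Of the symbols, 23 had been turned into dates and are not named.

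Genes that reached 1 CPM in 3 libraries or more were tested on log2(CPM + 1) with limma 3.58.1 in R 4.3.3 (lmFit, eBayes with trend and robust), two-sided, with a term per pool, the fraction and the label by fraction term. P-values were adjusted by Benjamini-Hochberg over all genes tested, with a threshold of 0.05. Fold changes on this scale understate those of low genes. Label differences within a fraction were fitted on its 6 libraries. That same-numbered fractions share a pool was checked: deviations from the group means correlated at 0.17 to 0.28 across genes in all 6 pools. Between fractions of different labels, which share no pool, they correlated at -0.144 to 0.165. The lowest same-pool value, 0.169, was only slightly higher, so the check is weak. The p-values measure the spread between pools. The code was tested on simulated data.

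Members, gene lists and marker lists were chosen with earlier results of these data known. The genes named are Kdm5c, the 12 with the smallest p in each direction, up to 3 of each list by p and up to 6 of each opposite pattern by p, with predicted genes and date symbols passed over, and some genes that the rule names are not reported here. Further clock, matrix and endothelial genes (Clock, Nr1d1, Nr1d2, Dbp, the Per genes, Cry2, Col1a1, Col1a2, Col4a1, Postn, Lox, Pecam1), Rps4l and those of the closing section were chosen after their values were seen. Positions and transcript lengths are from GENCODE M21 on GRCm38, which matched 15866 symbols (95.2%). Alternatives were another pseudocount (0.25 CPM), filters, scalings, blocks, edgeR 4.0.16 and DESeq2 1.42.0 on reads, removal of the length trend, and leaving out each pool.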

Additional observations from a re-analysis of the deposited data

How the results depend on the processing

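The count of genes called was 0 as reported and under 12 alternatives with all pools, among them pseudocount, filters, scalings, edgeR and removal of the length trend, which was chosen after seeing the data. DESeq2 called 92. Leaving out 1 pool gave 0 to 1 calls, the 1 without the third pool labelled Kdm5c+/–. An unadjusted p under 0.05 was reached by 1603 genes, and by 1004 (without wild-type pool 2) to 2280 (without the third pool labelled Kdm5c+/–) with a pool left out. With no replicate block 0 genes were called and 1267 had an unadjusted p under 0.05, and with the pool as a random replicate block 0 and 1739. A replicate block of the number that the labels share gave 0 and 1379. Deviations of same-numbered libraries across the labels correlated at 0.34, -0.03 and -0.00 in mature adipocytes and at 0.18, -0.28 and -0.20 in stromal vascular cells. They were positive for number 1 only, and do not settle whether those numbers pair the labels. Within mature adipocytes no alternative called a gene. Within stromal vascular cells leaving out any library gave 0 calls instead of 1. Counts of genes apart in both fractions came to 266 to 433 (opposite) and 537 to 1425 (same direction) with a pool left out, instead of 127 and 342, as 2 libraries are more easily apart from 3.

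Of 2081 single-gene values under alternatives, 3 reversed: Per1 without the second pool labelled Kdm5c+/– (-0.0040, in a range up to 0.21 with a pool left out), and Dlk1 with edgeR (-1.53) and DESeq2 (-1.73), which add no CPM. List medians were computed under 12 alternatives (scalings, pseudocount, the filter on each fraction, removal of the length trend and each pool left out), not with edgeR, DESeq2 or other blocks. Their sign was kept in those run for mature adipocyte, respiratory chain, ribosomal protein, immediate early, heat shock, cell cycle, extracellular matrix, TGF-beta, endothelial, pericyte, progenitor, macrophage and Schwann lists. Other lists, such as lipid synthesis (0.06 without the second pool labelled Kdm5c+/–) and interferon response (-0.05 without wild-type pool 2), changed sign in at least 1 alternative, except the single red blood cell gene tested. With 3 pools per label, the 95% interval of a single gene extends a median of 0.39 to either side, without adjustment over genes. That width is not the detection limit of the adjusted test, which did not call far larger estimates such as Mycl at 1.94 ± 0.36.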

Other observations

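DESeq2, the alternative that called genes, called 29 positive and 63 negative ones. Their median transcript lengths were 1745 and 6519 bases, and 7 were collagen genes. Some calls outside the genes described above had their larger label difference in stromal vascular cells. Lars2, the mitochondrial leucyl-tRNA synthetase, was at 868, 1622 and 329 CPM in stromal vascular cells labelled Kdm5c+/– and at 165, 228 and 211 CPM in wild type. In mature adipocytes it was at 292, 735 and 219 CPM against 274, 305 and 181 CPM, giving -1.41 ± 0.31 in limma. Angptl4, a secreted inhibitor of lipoprotein lipase, was at 557, 742 and 276 CPM against 104, 274 and 149.8 CPM in stromal vascular cells and at 873, 684 and 637 CPM against 406, 859 and 536 CPM in mature adipocytes, giving -1.23 ± 0.31. Both were apart between the labels in stromal vascular cells and overlapped in mature adipocytes, and in both the second pool labelled Kdm5c+/– was the highest and the third the lowest of its group in stromal vascular cells.

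Other calls lay in mature adipocytes. Ackr3, a scavenging chemokine receptor, was at 3.93, 3.12 and 5.45 CPM against 10.7, 10.5 and 11.5 CPM there and at 123, 217 and 192 CPM against 198, 139 and 202 CPM in stromal vascular cells, giving -1.19 ± 0.28. Itm2a (-1.18 ± 0.27), Medag (-1.44 ± 0.34) and the proteoglycan Bgn (-1.10 ± 0.28) had the same direction. The mitochondrial protein gene Chchd10 had 1.35 ± 0.35, with 128, 78.8 and 49.0 CPM against 58.1, 21.5 and 30.7 CPM in mature adipocytes, where the groups overlapped. Medag and Chchd10 overlap other annotated genes.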
